A study of Mus musculus with 2 samples.

Results

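Oxidative phosphorylation is carried out by protein complexes of the inner mitochondrial membrane, and the transcripts of their subunits were compared across cell types of the E15.5 mouse ovary. The genes were chosen by symbol: those that begin with Nduf followed by a, b, c, s or v and a digit, with Uqcr, with Cox4 to Cox8, or with Atp5, and the mt- genes for Nd, Co, Cytb and Atp. The rule found 93 of the 27998 genes in the files, 80 of them nuclear and 13 encoded by the mitochondrial genome. Complex I was represented by 35 nuclear and 7 mitochondrial genes, complex III by 8 and 1, complex IV by 20 and 3, and complex V by 15 and 2. Ndufa4 and Ndufa4l2 were placed in complex IV, where their proteins are found. Atp5s and Atp5sl matched the rule but are not subunits of ATP synthase, which left 78 nuclear subunits for the sums. Complex II, cytochrome c and a few subunits with other names fall outside the rule and are described beside it.

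Complex I takes electrons from NADH, complex III passes them on to cytochrome c, and complex IV hands them to oxygen, while protons are pumped across the membrane and return through complex V, the ATP synthase. The mitochondrial genome encodes core subunits of these complexes, transcribed as long polycistronic RNAs and cut apart at tRNAs, and the nucleus encodes the rest along with several tissue-specific isoforms of complex IV. Female germ cells enter meiotic prophase in the fetal ovary, and the mitochondria of the egg are those passed to the offspring.

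Both libraries came from ovaries of embryos at E15.5 that carried a Pou5f1-GFP transgene, a marker of germ cells. KO embryos were homozygous for a constitutive deletion of Nr3c1, the gene for the glucocorticoid receptor (GR), made by crossing an exon 3 floxed allele to a β-actin Cre line. The deletion was in every tissue, so the germ cells developed within an embryo that also lacked GR. Ovaries were pooled by genotype, from 2 KO embryos and 4 WT embryos, and sorted live germ cells were mixed with ovarian somatic cells at 60 to 40 before 10x 3′ capture. Each genotype gave 1 library, so no comparison below has a replicate and none carries a p-value. Effects of genotype cannot be told apart from those of pooling, sorting or capture.

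WT held 11430 barcodes with 168483330 UMIs and KO held 17829 barcodes with 186117981 UMIs. The study's limits on cells left 9045 WT cells (median 15685 UMIs) and 15502 KO cells (median 10194.5 UMIs). Germ-like cells numbered 6732 in WT and 10103 in KO, granulosa-like cells 854 and 1759, theca-like cells 735 and 1566, and epithelia-like cells 367 and 961. Clusters in which at least 40% of the cells were called doublets in both libraries (265 WT and 822 KO cells) were set aside. The libraries shared 75 cell barcodes, 27 of which were kept in both. Nr3c1 stood at 72.1 CPM (the gene's UMIs scaled to a fixed total per class and library) in WT germ-like cells and 11.5 in KO, although counts near the 3′ end can also come from a transcript that lost exon 3. Ddx4, a germ cell marker, was at 227 CPM in WT germ-like cells, and the 8 germ markers reached a median of 2.23% of their germ level in WT granulosa-like cells, with 3.79% for the theca and 2.01% for the epithelia class.

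Promoter sequence was at hand for 66 of the 80 nuclear genes (RefSeq, build GRCm38.p6, 250 bases before to 50 after the start). Letter patterns of 3 factors known to act on genes of this class were searched on both strands, with overlaps between patterns allowed: CCGGAAG for GABP, and the core motifs of NRF1 and YY1, whose matched letters stand in capitals in the windows of Atp5k and Ndufa9. The NRF1 letters were found for 15 of the 66 genes (22.7%) against 5.19% of all 27025 genes with promoter sequence. The GABP letters were in 14 (21.2%) against 9.93%, and those of YY1 in 6 (9.09%) against 0.995%. The windows of Ndufb7, Ndufs8, Cox8a and Atp5k are shown because these genes are described below, that of Ndufa9 as an example of the YY1 letters, and the capitals mark the matched letters on the strand of the gene.
Ndufb7, GABP letters, chr8:83566727-83566756 (+): gcctagatgacCCGGAAGacactgaagggg
Ndufs8, GABP letters (opposite strand), chr19:3912741-3912770 (-): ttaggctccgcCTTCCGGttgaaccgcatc
Cox8a, GABP letters (opposite strand), chr19:7217603-7217632 (-): tttccgaaataCTTCCGGctcgggcgtccg
Atp5k, NRF1 letters, chr5:108434430-108434459 (-): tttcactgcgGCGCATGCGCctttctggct
Ndufa9, YY1 letters, chr6:126849096-126849125 (-): attgtgggagAAGATGGCGGccgccgtccg
The Ndufb7 match starts 20 bases before the annotated start of transcription and that of Ndufa9 lies within the transcribed part. None of the 3 patterns occurred in the windows of Ndufa1, Cox7b, Cox7b2, Cox7c, Cox5a, Atp5f1 or Cox7a1. The genes used for comparison were not matched to the members for expression or base composition. A match is a string of letters and was not tested as a binding site.

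The first question was how subunit transcripts were distributed over the cells of a WT ovary. Germ-like cells held more nuclear subunit transcripts and fewer mitochondrial ones than granulosa-like cells, the supporting cells that surround them. The 78 nuclear subunits made up 4.08% of all UMIs in WT germ-like cells, 2.85%, 2.44% and 3.07% in the granulosa, theca and epithelia classes. The 13 mitochondrial genes made up 4.45% in germ-like, 7.21%, 4.63% and 5.67% in the granulosa, theca and epithelia classes. There were thus 1.09 mitochondrial UMIs per nuclear subunit UMI in germ-like cells and 2.53, 1.90 and 1.85 in the somatic classes. KO gave the same order of the classes for this ratio, with 0.835 in germ-like cells, 2.08, 1.58 and 1.51 in the granulosa, theca and epithelia classes.

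**Figure D1:**
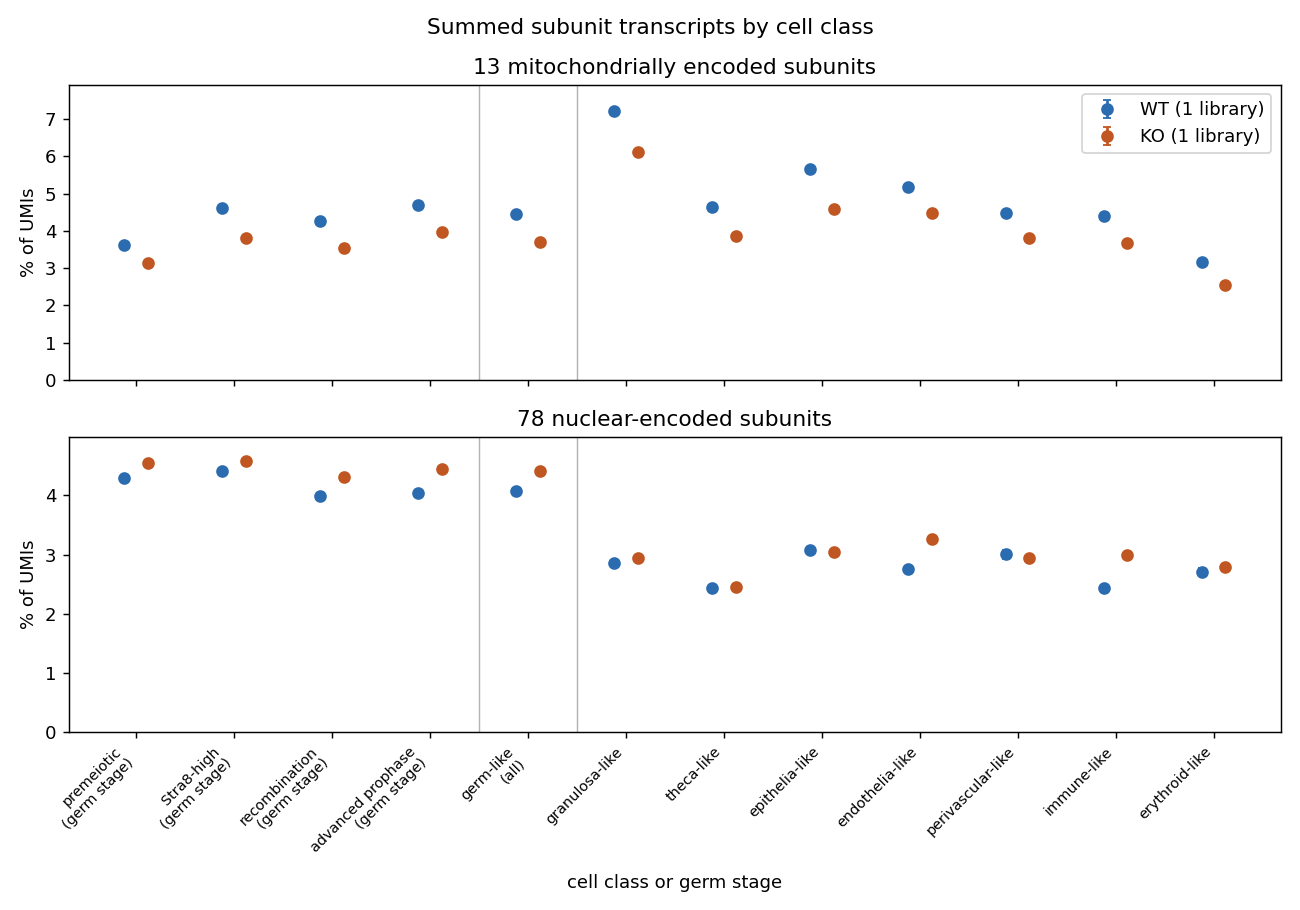
Share of all UMIs (%) in the 13 mitochondrial genes (top) and the 78 nuclear subunits (bottom) for each germ stage and cell class. Each point is 1 library (WT blue, KO orange), with an exact Poisson interval that is mostly smaller than the point. WT lies above KO in every class and stage in the top panel, from 7.21% against 6.11% in granulosa-like cells to 3.16% against 2.55% in erythroid-like cells.

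Against WT granulosa-like cells, the summed log2 ratio of WT germ-like cells was 0.51 for nuclear subunits and -0.69 for mitochondrial genes. The corresponding values were 0.74 and -0.06 against theca-like cells, and 0.41 and -0.35 against epithelia-like cells. The nuclear sum rested on a few abundant genes. Its median member stood at 0.08, close to the 0.09 of all 13172 genes with at least 100 UMIs, and the sum without Ndufa1, Cox7c, Atp5f1 and Cox5a gave 0.27. By the size limit of the study, a difference of at least 0.25 on its natural log scale (UMIs per 10000, with 1 added before the log), called the ln limit here, 30 of the 77 nuclear genes tested were higher in germ-like cells and 16 were lower. None of the 13 mitochondrial genes was higher and 12 were lower. Of all genes tested, 12.6% were higher and 12.2% lower. Because 1 is added before the log, abundant genes pass the ln limit at smaller fold differences than low ones. At 1.5-fold, 40.2% of all genes tested were higher and 36.2% lower. Whether the counts for these members, in total or by complex, exceed those of equally abundant genes was not tested. Complex I had 17 of 35 nuclear genes higher and 4 lower, complex III 2 and 2 of 8, complex IV 7 and 5 of 17 tested, and complex V 4 and 5 of 15. The mitochondrial difference was -0.31 when only cells under 5% mitochondrial UMIs were used, a limit that acts on the measured quantity itself. Few WT granulosa-like cells met that limit, since the 5th percentile of their mitochondrial share was 5.18%.

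Several nuclear genes stood far above their granulosa level. Ndufa1, an accessory subunit of complex I needed for its assembly, was at 1973 CPM in WT germ-like cells, 177, 178 and 172 in the granulosa, theca and epithelia classes. The KO library gave 1918, 183, 192 and 187 CPM. Erythroid-like cells, in which germ markers were also high, were at 1063 and 1172 CPM. The log2 ratio of germ-like to granulosa-like cells was 3.48 (95% interval 3.41 to 3.54) in WT. Intervals throughout cover counting error only. Atp5f1, subunit b in the peripheral stalk of ATP synthase, was at 1936 against 400.1 CPM (log2 2.27). Cox5a, a matrix-side subunit of complex IV, was at 1256 against 312 CPM (log2 2.01), and Cox7c, a small membrane subunit of the same complex, at 3454 against 920.4 CPM (log2 1.91). Atp5f1 and Cox7c each have a processed pseudogene at least 95% identical over 200 bases or more. Neither pseudogene is itself among the genes counted, and whether its reads add to those of the gene was not tested. No such copy was found for Ndufa1 or Cox5a.

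Isoforms of complex IV differed between germ and soma. Cox8a, the common form of subunit 8, was at 61.4 CPM in WT germ-like cells against 948, 727 and 1180.4 in the granulosa, theca and epithelia classes. The germ to granulosa log2 ratio was -3.95 (-3.99 to -3.90). Cox7b, the common form of subunit 7b, was at 52.1 against 446, 487 and 614 CPM (-3.10, -3.15 to -3.04). These were the lowest ratios among the genes tested that belong to the rule. Markers of granulosa cells reached a median of 0.820% (0.311 to 7.65%) of their granulosa level in germ-like cells. Cox8a reached 6.48% and Cox7b 11.7% of theirs.

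The isoforms Cox8c and Cox7b2, known from testis, had the opposite distribution. This did not hold for every alternative isoform, since Cox6b2 was at 55.1 CPM in WT germ-like and 105 in granulosa-like cells. Cox8c was at 21.7 CPM in WT germ-like cells and 0.661, 0.804 and 0.318 CPM in the granulosa, theca and epithelia classes. Its log2 ratio of germ-like over granulosa-like cells was 5.04 (3.99 to 6.36), from 2591 and 7 UMIs. The granulosa level was 3.04% of the germ level, within the 1.70 to 4.58% over which the germ markers lay there. That level rested on 7 UMIs, and whether it came from carried-over germ cell RNA was not tested. Cox7b2 was at 12.2 CPM in germ-like cells and at 1.23, 1.21 and 0.318 in the same somatic classes (log2 3.31, 2.53 to 4.22). Its granulosa level was 10.1% of the germ level in WT, above the range of the germ markers there, and 3.23% in KO. As a share of UMIs, Cox8c took 26.1% (exact binomial interval 25.3 to 27.0%) of Cox8a and Cox8c together in WT germ-like cells and 0.0697% in granulosa-like cells. Cox7b2 took 18.9% (18.1 to 19.8%) of Cox7b and Cox7b2 in germ-like cells and 0.274% in granulosa-like cells. Cox8a and Cox8c together thus stood at a small fraction of the somatic Cox8a level in germ-like cells. UMIs count molecules from their 3′ ends and were not divided by length.

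**Figure D2:**
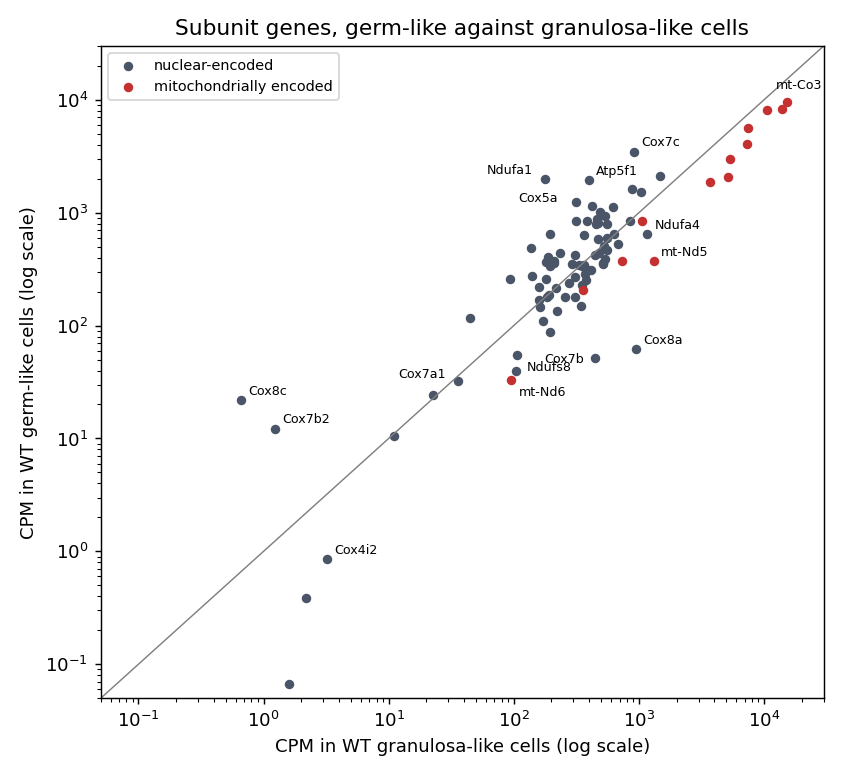
CPM of each gene in WT germ-like cells (vertical) against WT granulosa-like cells (horizontal), both on log axes, with nuclear genes dark and mitochondrial genes red; the line marks equal values. Cox8b, at 0.00839 CPM in germ-like cells, lies below the axis. All 13 mitochondrial genes lie under the line, Ndufa1 (1973 against 177) and Cox8c (21.7 against 0.661) lie far above it, and Cox8a (61.4 against 948) and Cox7b (52.1 against 446) far below.

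The remaining isoform sets differed less or were low. Cox4i1, the common form of subunit 4, was at 1536 CPM in WT germ-like and 1046 in granulosa-like cells (log2 0.55), and Cox4i2, known from lung, at 0.856 and 3.21 (-1.91). Cox6a1 was at 339.7 and 353 CPM (-0.05). Cox6a2 and Cox8b, forms of heart and skeletal muscle, had 8 and 1 UMIs in WT germ-like cells and 17 and 1 in granulosa-like cells, too few to compare. Cox6b1 was at 352 against 519 CPM (-0.56) and Cox6b2 at 55.1 against 105 (-0.94). Cox7a1, also known from muscle, was at 32.0 CPM in germ-like and 35.7 in granulosa-like cells, where the interval of the ratio reached 0.00, and at 2.55 and 4.77 in theca-like and epithelia-like cells. Its germ to granulosa log2 ratio of -0.16 turned to 2.74 with only cells under 5% mitochondrial UMIs, a limit that few granulosa-like cells met. Cox7a2 was at 1151 against 421 CPM (1.45) and Cox7a2l, a supercomplex factor, at 787 against 559 (0.49). Ndufa4 was at 645 against 1166 CPM (-0.85). The 3 genes for subunit c of ATP synthase, whose mature proteins are identical, did not move together: Atp5g2 was at 928 against 531 CPM (0.80), Atp5g1 at 362 against 519 (-0.52) and Atp5g3 at 237 against 276 (-0.22).

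Among mitochondrial genes, the largest and the smallest differences from granulosa-like cells were both in complex I. mt-Nd5 was at 372 CPM in WT germ-like against 1309 in granulosa-like cells (log2 -1.81), mt-Nd6 at 33.2 against 95.8 (-1.53), mt-Nd2 at 2092 against 5144 (-1.30), mt-Nd1 at 1882 against 3708 (-0.98) and mt-Nd4l at 371 against 728 (-0.97). mt-Nd5 and mt-Nd6 overlap on opposite strands. mt-Cytb of complex III was at 4041 against 7294 CPM (-0.85) and mt-Nd4 at 2975 against 5368 (-0.85). mt-Atp8 was at 207 against 357 CPM (-0.79), mt-Atp6 at 8338 against 14008 (-0.75) and mt-Co3 at 9573 against 15122 (-0.66). The smallest differences were those of mt-Co1 at 5674 against 7413 CPM (-0.39), mt-Co2 at 8143 against 10503 (-0.37) and mt-Nd3 at 844 against 1062 (-0.33). With only cells under 5% mitochondrial UMIs these 3 genes changed sign, to 0.0037 for mt-Co1, 0.02 for mt-Co2 and 0.21 for mt-Nd3. Few granulosa-like cells met that limit. Ndufs8, which holds iron-sulfur clusters of complex I, was at 40.0 against 105 CPM (-1.39). Among nuclear genes with at least 100 UMIs it was the next lowest after Cox8a, Cox7b and Cox4i2.

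The second question was whether subunit transcripts differed between KO and WT germ cells. Mitochondrial transcripts were lower in KO germ-like cells and nuclear subunit transcripts slightly higher, with Ndufb7 (log2 0.59) and the low Cox7b2 (0.48) at the upper end. The mitochondrial share was 4.45% in WT and 3.69% in KO (log2 ratio -0.27), and the nuclear share 4.08% and 4.42% (log2 ratio 0.12). By gene, the median log2 ratio was -0.30 for the 13 mitochondrial genes, with 12 below 0, and 0.11 for the 78 nuclear genes that passed 100 UMIs, with 71 above 0. Over all 13705 genes tested the median was -0.06, and 5248 were above 0. By the ln limit of the study, 1 nuclear gene (Ndufb7, higher) and 1 mitochondrial gene (mt-Atp6, lower) were past it, as were 0.175% of all genes. A ratio of at least 1.5-fold in either direction was found for 1 of the 78 nuclear and none of the 13 mitochondrial genes, against 5.38% of all genes.

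Ndufb7 encodes an accessory subunit in the membrane arm of complex I and lies at chr8:83566671-83571626 on the plus strand (GRCm38). Its level in germ-like cells was 272 CPM in WT (268.7 to 275) and 409 in KO (406 to 413), a log2 ratio of 0.59 (0.57 to 0.61). The gene was higher in KO at each germ stage, with 329.7 and 435 CPM in premeiotic cells, 505 and 586 in Stra8-high cells, 269 and 392 in recombination cells, and 193 and 312 in advanced prophase cells (WT and KO). The log2 ratios at these stages were 0.40, 0.21, 0.54 and 0.69, and no interval reached 0. In granulosa-like cells it was at 309 and 307 CPM (log2 -0.01, -0.07 to 0.06), in theca-like cells at 216 and 203 (-0.08, -0.18 to 0.01), and in epithelia-like cells at 306 and 300.0 (-0.03, -0.11 to 0.05). The germ stages were not equally common, since advanced prophase cells made up 41.9% of WT and 32.7% of KO germ-like cells and Stra8-high cells 9.40% and 14.5%. With the WT shares applied to KO the ratio was 0.51, under 1.5-fold. Stage markers also differed between the libraries, and whether cells of one stage name were alike in both was not tested. Tecr, the neighbouring gene that ends toward Ndufb7, was at 66.2 CPM in WT and 70.3 in KO germ-like cells (log2 0.09). No copy of Ndufb7 of at least 95% identity over 200 bases was found among the annotated transcripts.

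**Figure D3:**
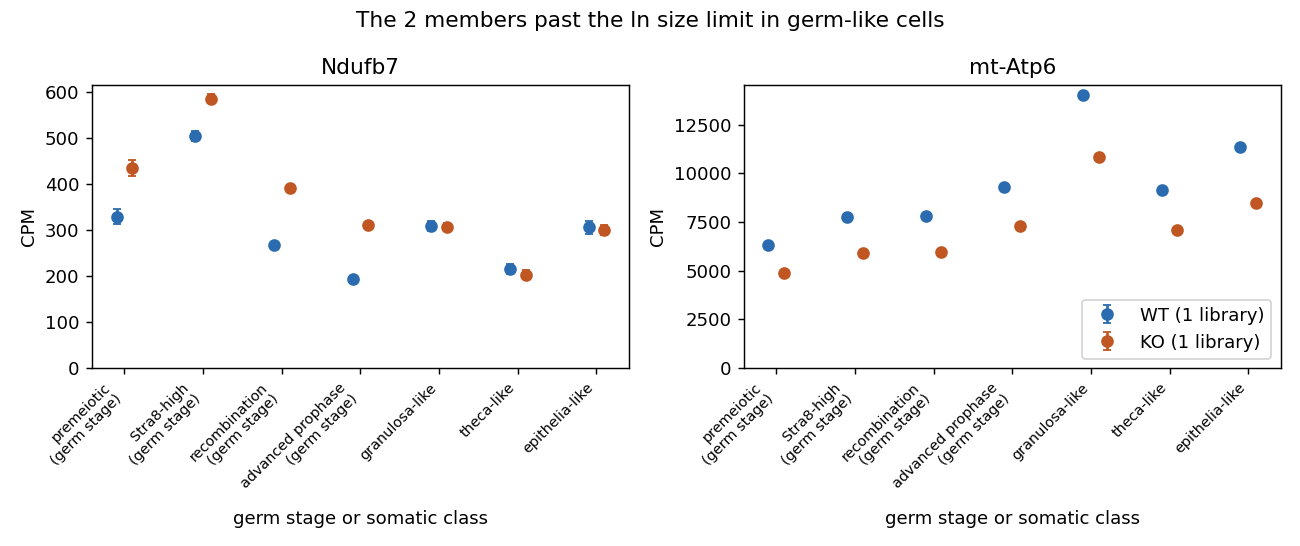
CPM of Ndufb7 (left) and mt-Atp6 (right) in the 4 germ stages and 3 somatic classes, 1 point per library (WT blue, KO orange) with exact Poisson intervals. Ndufb7 lies higher in KO at every germ stage, from 193 against 312 to 505 against 586, and the somatic pairs lie together; mt-Atp6 lies lower in KO in all 7.

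Most other nuclear genes shifted little. In complex I, 34 of the 35 nuclear genes were above 0 in KO germ-like cells, and the summed ratio was 0.12. Ndufs8 was at 40.0 CPM in WT and 50.2 in KO (log2 0.33), Ndufs5, a small intermembrane-space subunit, at 843 and 1016 (0.27), Ndufb8 at 351 and 425 (0.27) and Ndufb6 at 488 and 587 (0.27). Ndufa1 was the exception, at 1973 and 1918 CPM (-0.04). All 8 nuclear genes of complex III were above 0, and their sum gave 0.12, with the core protein Uqcrc1 at 147 and 180.1 CPM (0.29), Uqcrb at 285 and 346 (0.28) and the Rieske iron-sulfur protein gene Uqcrfs1 at 109 and 112 (0.04). All 15 nuclear genes of complex V were above 0 with a sum of 0.11. Atp5k, subunit e, which holds ATP synthase dimers together, was at 179 and 224 CPM (0.32), Atp5g1 at 362 and 449.9 (0.31), Atp5g2 at 928 and 978 (0.07) and Atp5g3 at 237 and 253 (0.09).

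Complex IV was the most mixed of the complexes, with 14 of 18 tested nuclear genes above 0 and a sum of 0.11. Cox7b was lower in KO germ-like cells, at 52.1 and 45.4 CPM (log2 -0.20, -0.25 to -0.15), and so was Cox8a at 61.4 and 54.3 (-0.18, -0.23 to -0.13). Their germ-line partners were higher, Cox7b2 at 12.2 and 16.9 CPM (0.48, 0.38 to 0.57) and Cox8c at 21.7 and 26.8 (0.30, 0.22 to 0.38). The share of Cox8c in its pair was 26.1% in WT and 33.0% (32.1 to 34.0%) in KO, and that of Cox7b2 18.9% and 27.2% (26.2 to 28.2%). Cox7a1 was at 32.0 and 39.8 CPM (0.31), Cox5a at 1256 and 1543 (0.30), Cox4i1 at 1536 and 1721 (0.16) and Cox6b1 at 352 and 339.4 (-0.05). Cox7b was also lower in KO in the somatic classes, by -0.30, -0.25 and -0.25 in the granulosa, theca and epithelia classes, whereas Cox8a stood at 0.03, 0.01 and 0.01 there. Atp5k was higher in KO in the same classes, with 0.29, 0.17 and 0.16.

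**Figure D4:**
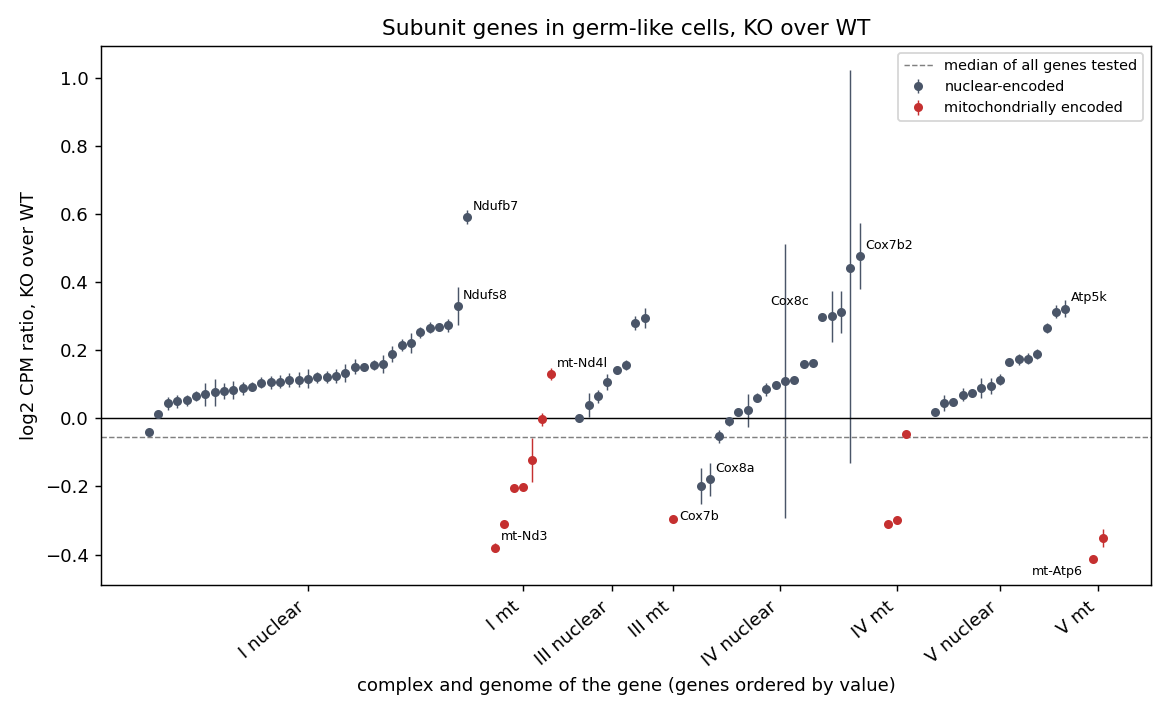
Log2 CPM ratio of KO over WT in germ-like cells for each subunit gene with at least 100 UMIs, grouped by complex and genome and ordered by value; bars are exact 95% intervals for counts (wide for the low genes Cox4i2 and Ndufa4l2), and the dashed line is the median of all genes tested (-0.06). Nuclear genes (dark) lie mostly just above 0, Ndufb7 at 0.59 lies highest, and 12 of the 13 mitochondrial genes (red) lie below 0.

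The mitochondrial genes did not differ by the same amount. mt-Atp6, subunit a that forms the proton path of ATP synthase, was at 8338 CPM in WT and 6259 in KO germ-like cells (log2 -0.41). mt-Nd3 was at 844 and 648 (-0.38), mt-Atp8 at 207 and 163 (-0.35), mt-Co3 at 9573 and 7713 (-0.31), mt-Nd2 at 2092 and 1686 (-0.31), mt-Co2 at 8143 and 6622 (-0.30) and mt-Cytb at 4041 and 3290.1 (-0.30). Smaller differences were seen for mt-Nd1 at 1882 and 1634 CPM (-0.20), mt-Nd4 at 2975 and 2589.5 (-0.20) and mt-Nd6 at 33.2 and 30.5 (-0.12, -0.19 to -0.06). mt-Co1, the catalytic core of complex IV, was nearly level at 5674 and 5493 CPM (-0.05), as was mt-Nd5 at 372 and 372 (interval -0.02 to 0.02). mt-Nd4l was higher in KO, at 371 and 407 CPM (0.13, 0.11 to 0.15). It overlaps mt-Nd4 on the same strand, as mt-Atp8 does mt-Atp6. Whether the genes of these pairs are counted as separate transcripts was not tested. By complex, the mitochondrial sums gave -0.22 for complex I, -0.30 for complex III, -0.24 for complex IV and -0.41 for complex V. Copies of at least 95% identity were annotated in the nuclear genome for 9 of the 13. Among them was one identical over 678 bases to mt-Atp6, which is not itself among the genes counted. mt-Nd1, mt-Cytb, mt-Atp8 and mt-Nd6 had none.

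The lower mitochondrial level in KO was also measured in the somatic classes. The summed log2 ratio of KO over WT was -0.24, -0.26 and -0.31 in the granulosa, theca and epithelia classes, beside -0.27 in germ-like cells. It was -0.21 in endothelia-like, -0.23 in perivascular-like, -0.25 in immune-like and -0.31 in erythroid-like cells, each with 14 to 137 cells a library. Germ markers were nearer to their germ level in KO in these 4 classes, with medians of 2.08% in WT and 23.6% in KO endothelia-like, 5.14% and 11.8% in perivascular-like, 5.17% and 16.5% in immune-like, and 38.0% and 59.4% in erythroid-like cells, and their part in the ratios was not tested. Doublet calls made up 21.2% of the KO endothelia-like cells. Nuclear subunits gave 0.04, 0.00 and -0.02 in the granulosa, theca and epithelia classes, beside 0.12 in germ-like cells. Their median member was 0.03, 0.01 and -0.01, and 56 of 74, 43 of 74 and 31 of 73 genes tested were above 0. In granulosa-like cells mt-Atp6 (14008 and 10858 CPM) was the member past the ln limit, where 0.0961% of all genes were lower by that much. The same gene was the one past it in theca-like cells (9167 and 7070 CPM, 0.0834% of all genes). In epithelia-like cells mt-Nd3 (915 and 675 CPM), mt-Atp6 (11335 and 8497) and mt-Cytb (5963 and 4547) were past it, against 0.127% of all genes, and all 13 mitochondrial genes were below 0.

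At the lower end mt-Nd3 and mt-Atp6 recurred in all 3 somatic classes, and at the upper end Atp5k did. mt-Nd3, mt-Atp6 and mt-Nd2 were the lowest in granulosa-like cells (-0.38, -0.37 and -0.32) and in theca-like cells (-0.38, -0.37 and -0.34), and mt-Atp8, mt-Nd3 and mt-Atp6 in epithelia-like cells (-0.45, -0.44 and -0.42). mt-Nd4l was above 0 in granulosa-like and theca-like cells (0.12 and 0.08) and below it in epithelia-like cells (-0.09). The highest were Atp5k, Ndufa3 and Cox6b2 in granulosa-like cells (0.29, 0.16 and 0.16), Atp5k, Ndufs7 and Ndufs1 in theca-like cells (0.17, 0.14 and 0.13), and Atp5sl, Atp5k and Ndufv1 in epithelia-like cells (0.32, 0.16 and 0.13). The intervals of Ndufs1, Atp5sl and Ndufv1 reached 0.

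Depth and the mitochondrial limit differed between the libraries along with genotype. KO cells were shallower, and the limit of 10% mitochondrial UMIs alone removed 3.66% of the WT and 1.69% of the KO cells that passed the other limits. Within germ-like cells of like depth, the mitochondrial log2 ratio of KO over WT was -0.22 at 5500 to 10000 UMIs, -0.27 at 10000 to 15000, -0.37 at 15000 to 20000 and -0.29 at 20000 to 30000. The nuclear ratio in these bins was 0.17, 0.10, 0.09 and 0.11. Without any mitochondrial limit the mitochondrial ratio was -0.30, and with a limit of 5%, which acts on the measured quantity itself, it was -0.10. Scaling by the median of ratios across genes gave -0.22 for the mitochondrial and 0.17 for the nuclear sum. The part of depth in these differences was not tested further.

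Other genes of the pathway were listed apart from the rule, and most lists had medians nearer to that of all genes. In KO germ-like cells the 4 genes of complex II had a median log2 ratio of 0.00, with 2 above 0, and Sdha was at 91.1 CPM in WT and 87.7 in KO. The 3 subunits and carriers that the rule misses were all higher: Cycs, the somatic cytochrome c, at 189 and 231 CPM (0.29), Cyc1 of complex III at 180.1 and 215 (0.25) and Ndufab1, the acyl carrier of complex I, at 454 and 506 (0.16). Of 43 assembly factors tested, 19 were above 0 and the median was -0.03. Of 17 genes for mitochondrial gene expression 8 were above 0 with a median of -0.05, and Tfam, which packages mitochondrial DNA and starts its transcription, was at 62.5 and 63.8 CPM (0.03, -0.02 to 0.08). Of 6 tested nuclear regulators 1 was above 0, and the median was -0.08. Ppargc1a was below 100 UMIs.

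The third question was how the subunits varied along meiotic prophase. Germ-like cells were divided into clusters made without any of the 93 genes and named by the stage markers that led them, giving 217 premeiotic, 633 Stra8-high, 3061 recombination and 2821 advanced prophase cells in WT, and 373, 1469, 4955 and 3306 in KO. The markers fitted these names in part. In WT, Stra8 was at 572, 1421, 104 and 8.32 CPM in the order of the stages, Meiob, a recombination gene, at 129, 172, 300.4 and 120.5, and Sohlh1, an oocyte transcription factor, at 7.61, 2.43, 0.682 and 30.7. Pou5f1, listed as premeiotic, was at 51.9, 28.8, 22.6 and 72.7 CPM and so was highest in the last stage. Other listed markers also peaked outside their stage. Figla, of the advanced prophase list, was at 115, 178, 213 and 167 CPM, and Spo11, of the recombination list, at 42.5, 25.6, 102 and 129. Rhox13, of the Stra8-high list, was at 57.1, 79.8, 103 and 50.3 CPM, and Dppa5a, of the premeiotic list, at 304, 360, 56.4 and 51.8. Premeiotic cells held the most doublet calls, 20.3% in WT and 33.2% in KO, against at most 2.56% in any later stage.

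Over all kept cells, mitochondrial transcripts per nuclear subunit transcript were lowest in premeiotic cells and highest in advanced prophase. The ratio was 0.844, 1.04, 1.07 and 1.16 over the stages in WT and 0.690, 0.831, 0.819 and 0.890 in KO, so KO was below WT at each stage. The log2 ratio of last over first stage was 0.46 in WT and 0.37 in KO. In WT it was made up of 0.37 for the mitochondrial and -0.09 for the nuclear sum. Without the cells called doublets the premeiotic ratio was 0.768 in WT and 0.621 in KO. Among WT cells of 10000 to 15000 UMIs it was 0.555, 1.12, 1.01 and 1.21 over the stages, the first from 47 and the second from 35 cells. In KO it was 0.538, 0.885, 0.843 and 0.849, so that Stra8-high cells were highest there. The log2 ratio of last over first stage in WT was 0.76 with common limits on cells for both libraries and 0.73 with the clustering of the study. The stages were not uniform inside: of the 8 clusters, the 2 with the shallowest WT cells (medians of 11849 and 13463.5 UMIs) had mitochondrial shares of 6.02% and 6.13% in WT, whereas the others lay between 3.63% and 4.89%. The first was an advanced prophase cluster with a WT ratio of 1.32, the second a recombination cluster with 1.29. The larger advanced prophase cluster in WT, of 1826 cells, stood at 1.10, below that recombination cluster.

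By the ln limit, 2 of 76 nuclear genes tested were higher in WT advanced prophase than in premeiotic cells and 18 were lower, and 7 of the 13 mitochondrial genes were higher and 1 lower. The shares of all genes were 1.98% higher and 5.69% lower. At 1.5-fold they were 19.7% higher and 21.7% lower. Abundant genes pass the ln limit at smaller fold differences, and the members were not compared with equally abundant genes. Ndufa1 and Cox7a2l were the 2 nuclear genes higher. Ndufa1 was at 1329, 896, 1925 and 2440.3 CPM over the stages in WT (last over first 0.88) and 1292, 1018, 2007 and 2498 in KO. Cox7a2l was at 612, 517, 760.3 and 921 CPM in WT (0.59). Cox7a1 had the largest difference of all members with at least 100 UMIs, at 88.9, 99.5, 30.0 and 6.98 CPM in WT (-3.67, -3.89 to -3.46) and 90.4, 89.6, 32.7 and 8.64 in KO. Atp5g1 was at 619, 730.5, 339 and 243 CPM (-1.35), and Ndufa3 was at 197 CPM in the first stage (-1.06). Uqcrb (500.5 to 250.3 CPM) and Ndufb7 (329.7 to 193, -0.77) were also among the 18. Atp5sl, which is no subunit, gave 0.65.

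**Figure D5:**
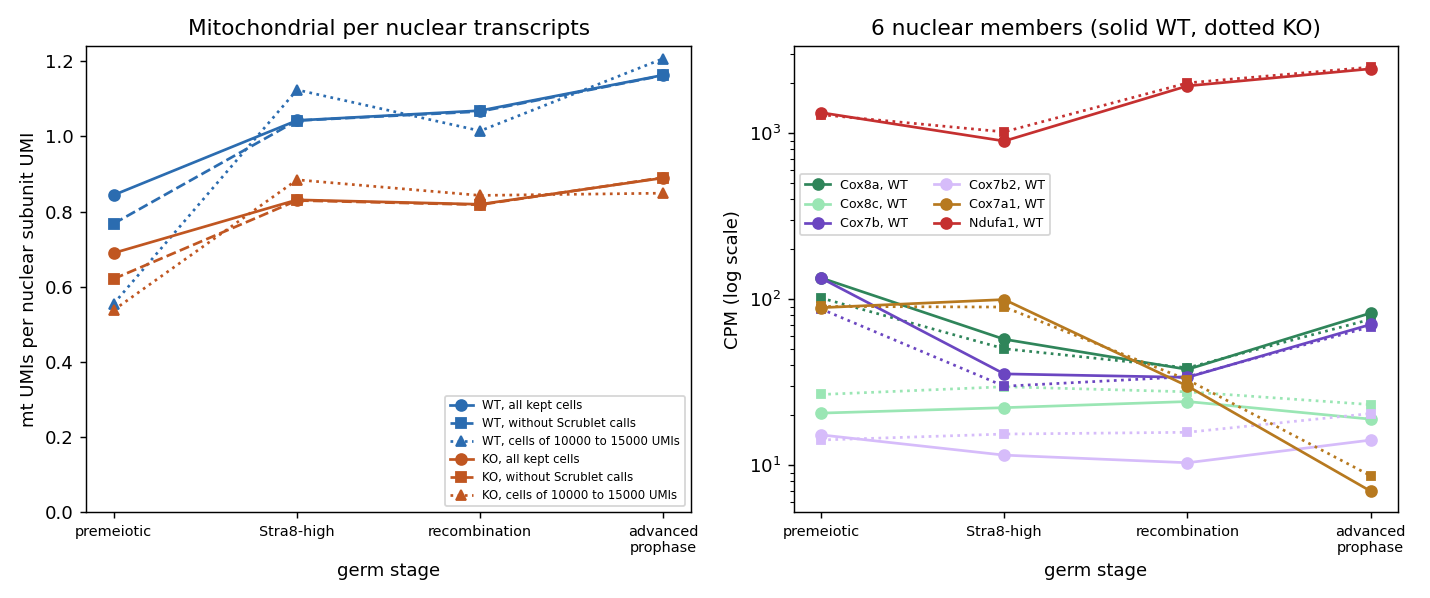
Left, mitochondrial UMIs per nuclear subunit UMI over the 4 germ stages for WT (blue) and KO (orange), with all kept cells, without cells called doublets, and with cells of 10000 to 15000 UMIs. Right, CPM on a log axis of 6 nuclear genes, solid for WT and dotted for KO; Cox7a1 is lower in the last stage (6.98 CPM against 88.9 in the first in WT), Ndufa1 higher (2440.3 against 1329), and in WT Cox8a and Cox7b are lowest in recombination cells (37.7 and 33.8 CPM).

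Of the mitochondrial genes, mt-Atp6 (6340 to 9299 CPM, log2 0.55), mt-Cytb (3119 to 4383, 0.49), mt-Nd4l (261 to 395, 0.60), mt-Nd3 (634 to 901, 0.51), mt-Nd2 (1608 to 2219, 0.46), mt-Atp8 (145 to 225, 0.63) and mt-Co2 (6637 to 8575, 0.37) were higher in the last stage by the limit. mt-Nd6 gave the largest ratio of the 13 (20.2 to 39.7 CPM, 0.98) without reaching it, and mt-Nd4, mt-Co3, mt-Nd1 and mt-Co1 gave 0.37, 0.29, 0.27 and 0.19. mt-Nd5 went the other way, from 420 to 288 CPM (-0.54). The complex IV isoform pairs varied as well. Cox8a was at 134, 57.3, 37.7 and 82.5 CPM and Cox8c at 20.6, 22.2, 24.2 and 18.9 over the stages in WT, so that Cox8c took 13.3%, 27.9%, 39.0% and 18.7% of the pair. Cox7b was at 134, 35.5, 33.8 and 70.4 CPM and Cox7b2 at 15.2, 11.5, 10.3 and 14.2. Cox8a and Cox7b are abundant in somatic cells, and the part of cells called doublets in their premeiotic levels was not tested.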

How the data were processed

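Single cells of E15.5 ovaries were measured in 1 WT and 1 KO library with 10x 3′ v3 chemistry. The deposited matrices hold UMI counts per gene and barcode, which the authors made with Cell Ranger 3.0.2 per the file headers; the submitters' notes name Seurat 3.2.3 and build mm10. No column of the files was left out (0 not used). Cells were kept within the study's limits: 1500 to 6500 genes and 5500 to 40000 UMIs in WT, 1200 to 5500 genes and 3000 to 30000 UMIs in KO, and under 10% mitochondrial UMIs. Cells were clustered with scanpy 1.11.5 and leidenalg 0.10.2 (2000 variable genes, 30 components, 20 neighbours, resolution 0.5, seed 1), leaving out the 93 genes and all mitochondrial genes and without regressing the mitochondrial share. Doublets were called with Scrublet (expected rate 8%); the rule that set mixed clusters aside was chosen after seeing the data. Counts were summed per class and library and divided by the total to give CPM, with exact Poisson intervals and conditional binomial intervals for ratios (scipy 1.17.1, numpy 2.4.6, pandas 2.3.3). A gene was tested against the size limits with at least 100 UMIs over both groups compared; the scripts were tested on simulated data. Copies were searched with blastn 2.17.0. Of the 27998 identifiers, 27645 matched GENCODE M21 (GRCm38), among them all 93 members.

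Genes were named by rule: all mitochondrial members, Ndufb7, members past either limit in germ-like cells, the 3 highest and 3 lowest with at least 100 UMIs in each other comparison, and the isoform sets. Others named in the text were chosen after their values were seen. The members and all lists were chosen with earlier results of these data known. Alternatives covered cell limits, the mitochondrial limit, scaling, clustering, doublets, carried-over germ transcripts, size limits and the minimum count.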

Additional observations from a re-analysis of the deposited data

Results flagged for a closer look

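Summed nuclear subunit transcripts were higher in KO than in WT germ-like cells (log2 0.12) and lower in KO than in WT epithelia-like cells (-0.02, counting interval -0.02 to -0.01). The result was marked because the single libraries of the 2 classes differed in opposite directions. The difference between the classes was not tested, since each class has 1 library per genotype.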

How the results depend on the processing

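No result changed direction among the sums and counts. The reported values were 0.12 (nuclear sum, KO over WT, germ-like), -0.27 (mitochondrial sum, same), 0.51 and -0.69 (nuclear and mitochondrial, WT germ-like over granulosa-like), 0.46 (mitochondrial per nuclear, last over first stage, WT), 2 genes past the ln limit and 1 past 1.5-fold. In that order, common cell limits gave 0.11, -0.29, 0.52, -0.68 and 0.76. Without a mitochondrial limit the last 4 were -0.30, 0.52, -0.72 and 0.52. A limit of 5%, which few WT granulosa-like cells met, gave 0.14, -0.10, 0.44, -0.31 and 0.38, with 1 gene past the ln limit. CPM without mitochondrial, ribosomal and haemoglobin genes gave 0.092, -0.30, 0.53 and -0.68, with 0 genes past 1.5-fold. Median-of-ratios scaling gave 0.17, -0.22, 0.42 and -0.79, with 1 past the ln limit. The median over members gave 0.11, -0.30, 0.082 and -0.85. The mitochondrial KO over WT ratio was -0.27 and the stage ratio 0.66 as a mean over cells; thinned to 3000 UMIs they were -0.27 and 0.66, with 0.50 for nuclear germ over granulosa. Without doublet calls they were -0.27 and 0.60. The study's clustering gave 0.46, -0.64 and 0.73 for germ over granulosa and the stage ratio, and subtracting carried-over germ transcripts gave 0.56 and -0.67. Of alternatives chosen after seeing the data, keeping mixed clusters gave 0.41 and -0.61 for germ over granulosa, WT stage shares gave -0.26 for the mitochondrial KO over WT ratio and 0 genes past 1.5-fold, and cells of 10000 to 15000 UMIs gave 0.10 and -0.27 for KO over WT. Larger size limits left 0 genes past either, and a minimum of 1 UMI in each library gave 2 past 1.5-fold. Among 66 single-gene values with 625 alternatives, 18 changed sign, in 11 values: KO over WT in germ-like cells for Cox4i2, Cox6b1, Cox6b2, Cox7a2, Cox7a2l, mt-Co1 and mt-Nd5, and germ over granulosa for Cox7a1, mt-Co1, mt-Co2 and mt-Nd3. The causes of these changes were not tested. No paired analysis was possible because each group holds 1 library. With 1 library per genotype, intervals cover counting error only, and Cox8b and Cox6a2 are too low to compare in germ-like cells at this depth.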

Other observations

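A few genes outside the main comparisons were picked after their values were seen. In perivascular-like cells (16 in WT and 56 in KO), Ndufa4l2, a hypoxia-inducible relative of Ndufa4, was at 815 CPM in WT and 624 in KO, against 2.12 and 2.03 in other somatic cells. Cox4i2 was at 242 and 255 CPM there, against 3.73 and 3.18. Ndufa4 was at 548 CPM in WT and 446 in KO in the same cells, against 609 and 586 in theca-like, 588 and 572 in immune-like and 1166 and 1148 in granulosa-like cells.

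Cyct, the testis form of cytochrome c, was at 29.0 CPM in WT and 59.1 in KO germ-like cells (log2 1.03, 0.97 to 1.09). It was higher in KO at each stage, with 85.5 and 153.8 CPM in premeiotic, 79.6 and 142 in Stra8-high, 16.4 and 31.5 in recombination, and 21.3 and 32.2 in advanced prophase cells. In granulosa-like cells it was at 1.32 and 1.23 CPM. Lyrm7, which helps insert the Rieske protein into complex III, was at 6.10 CPM in WT and 9.47 in KO germ-like cells (0.64).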
